A study of Mus musculus with 19 samples.

Results

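The 7 genes Ank1, Il17d, Kif3c, Basp1, AW495222, Adcy9 and Stmn2, of 23420 genes with counts, were followed across mouse pluripotent cell lines. They were chosen by their counts, which differed between libraries of 129S1/SvImJ (129) iPSC clones 1 and 17 grown in 2iS and libraries of the same clones grown in ESC/LIF, so those 4 libraries fixed their choice and their values there are given as a description. The question was whether the levels in the other lines lay nearer to those of the medium or varied with the strain.

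RNA was sequenced from 19 libraries of 12 conditions. Male 129 iPSC clones 1 and 17 were sequenced in ESC/LIF, a serum medium with leukaemia inhibitory factor, at passages 21 and 20, and again in 2iS, the same serum medium with an inhibitor of GSK3B and an inhibitor of MEK, at passages 31 and 30. Female 129 iPSC clones 5 and 8 were sequenced in ESC/LIF at passages 19 and 17. The remaining iPSC were in 2iS, namely 2 female and 2 male clones of WSB/EiJ (WSB) and 2 female and 2 male clones of NOD/ShiLtJ (NOD). ESC were 1 male line each of 129, NOD and WSB, kept with serum, LIF and both inhibitors. EpiSC were 1 male NOD line and the male line FT129/4, which is of 129/Sv and not of 129S1/SvImJ background. Both were kept in a separate EpiSC medium. The iPSC came from embryonic fibroblasts of pooled litter mates through lentiviral Oct4, Klf4, Sox2 and Myc, each library is 1 clone, and fibroblasts were depleted before RNA extraction. The female 129 clones were the only 129 iPSC that the choice of genes did not use. Their strain, medium and clones therefore cannot be told apart from each other in a comparison with WSB or NOD, and no WSB or NOD iPSC was sequenced in ESC/LIF.

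As background, MEK passes growth factor signals on to ERK, and GSK3B marks beta-catenin for destruction, so the inhibitors lower ERK output and stabilise beta-catenin, which holds mouse pluripotent cells in the naive state of ESC. EpiSC stand for the later, primed epiblast. Of the genes, Ank1 codes for ankyrin-1, which ties spectrin to the membrane and is best known from red cells. Il17d codes for a secreted cytokine of the IL-17 family, and Kif3c for a kinesin-2 motor subunit of axonal transport. Basp1 codes for a membrane-bound protein of growth cones related in behaviour to GAP43 and MARCKS. Adcy9 codes for an adenylyl cyclase, which makes cAMP, and Stmn2 for a stathmin that binds tubulin in growing axons. AW495222 is annotated as an antisense RNA gene, and its function is not known here.

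In the GENCODE annotation of GRCm38, AW495222 lies on the minus strand at chr13:93706182-93719175, and 215 bases of its exons lie opposite exons of Dmgdh, a mitochondrial dehydrogenase. Adcy9 lies on the minus strand at chr16:4287529-4420498, Basp1 on the minus strand at chr15:25363277-25413764, Il17d on the plus strand at chr14:57524777-57543166 and Stmn2 on the plus strand at chr3:8509360-8561606, with no exon opposite. Ank1 lies on the plus strand at chr8:22974844-23150497, and 862 bases of its exons face another gene. Kif3c lies on the plus strand at chr12:3365132-3406494, and 3016 bases of its exons are faced, most of them by 1110002L01Rik.

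The start regions of AW495222 and Adcy9 are shown because Adcy9 and AW495222 had the closest levels across libraries described further on, while their sequences differ widely. Each line gives the 250 bases before the RefSeq gene start on the gene's own strand, here minus (GRCm38.p6, chr13:93719176-93719425 and chr16:4420499-4420748). The capitals in Adcy9 mark TGACGT, a part of the cAMP response element, at 24 to 19 bases before the start.
AW495222: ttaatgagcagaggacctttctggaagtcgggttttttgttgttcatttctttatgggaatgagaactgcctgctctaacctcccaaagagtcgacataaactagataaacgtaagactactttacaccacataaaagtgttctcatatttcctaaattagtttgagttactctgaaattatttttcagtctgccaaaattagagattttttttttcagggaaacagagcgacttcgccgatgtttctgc
Adcy9: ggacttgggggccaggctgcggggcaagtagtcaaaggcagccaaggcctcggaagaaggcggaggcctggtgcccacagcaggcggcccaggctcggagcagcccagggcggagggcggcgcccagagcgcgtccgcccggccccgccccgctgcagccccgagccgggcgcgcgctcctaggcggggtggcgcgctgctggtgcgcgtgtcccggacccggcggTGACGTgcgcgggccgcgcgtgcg
GC content was 36.8% in the AW495222 region and 78.8% in the Adcy9 region. Of the 7 genes, 5 had an entry (also Kif3c, Il17d and Basp1). On both strands, CTTTGAT (TCF/LEF) and CCGGAA (ETS) matched none of the 5, and TGACGT matched in Adcy9 alone. In 27025 mouse start regions of this length these letters occurred in 3.23%, 12.2% and 6.56%.

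Gene counts were low. Between 92996 and 567432 read pairs per library fell on genes, so that 3 counts equal 5.29 to 32.3 CPM (counts relative to library size) before TMM scaling. All levels below are TMM-scaled CPM, so that libraries of unequal depth can be set side by side. In 17 libraries 1.15% to 1.74% of uniquely aligned pairs fell on genes, but 5.59% to 5.62% in both NOD male iPSC libraries. Of the 100 most counted genes, 91% had exons on the opposite strand in the 17 libraries and 41% in the NOD males, against 24.6% of all annotated genes. NOD males were therefore kept out of the tests. The strand setting of the counting is not given in the sources used here, so reads of a gene and its antisense partner cannot be told apart. For Il17d, Basp1, Adcy9 and Stmn2, which have no exon opposite, it is likewise not known from which strand the counts come. The part of this in the levels was not tested. Conditions follow the sample titles; the other label fields named another condition in every library, and 4 genes of the Y chromosome had 0 counts in the 6 libraries titled female and at least 5 in the 13 titled male. Summed levels of 11 naive markers ran from 1251 to 1881 CPM in ESC and from 1706 to 2288 in the 6 WSB and NOD iPSC tested, against 35.8 to 68.6 in EpiSC. The list holds Klf4, a gene of the lentiviral mix, so the iPSC sums may include lentiviral reads. Summed levels of 11 primed markers overlapped between ESC (295 to 864 CPM) and EpiSC (588 to 862 CPM), and were 203 to 465 CPM in the 6 iPSC. Nothing in the labels names separate cultures within a clone or line, so p-values measure the spread between these samples.

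**Figure D1:**
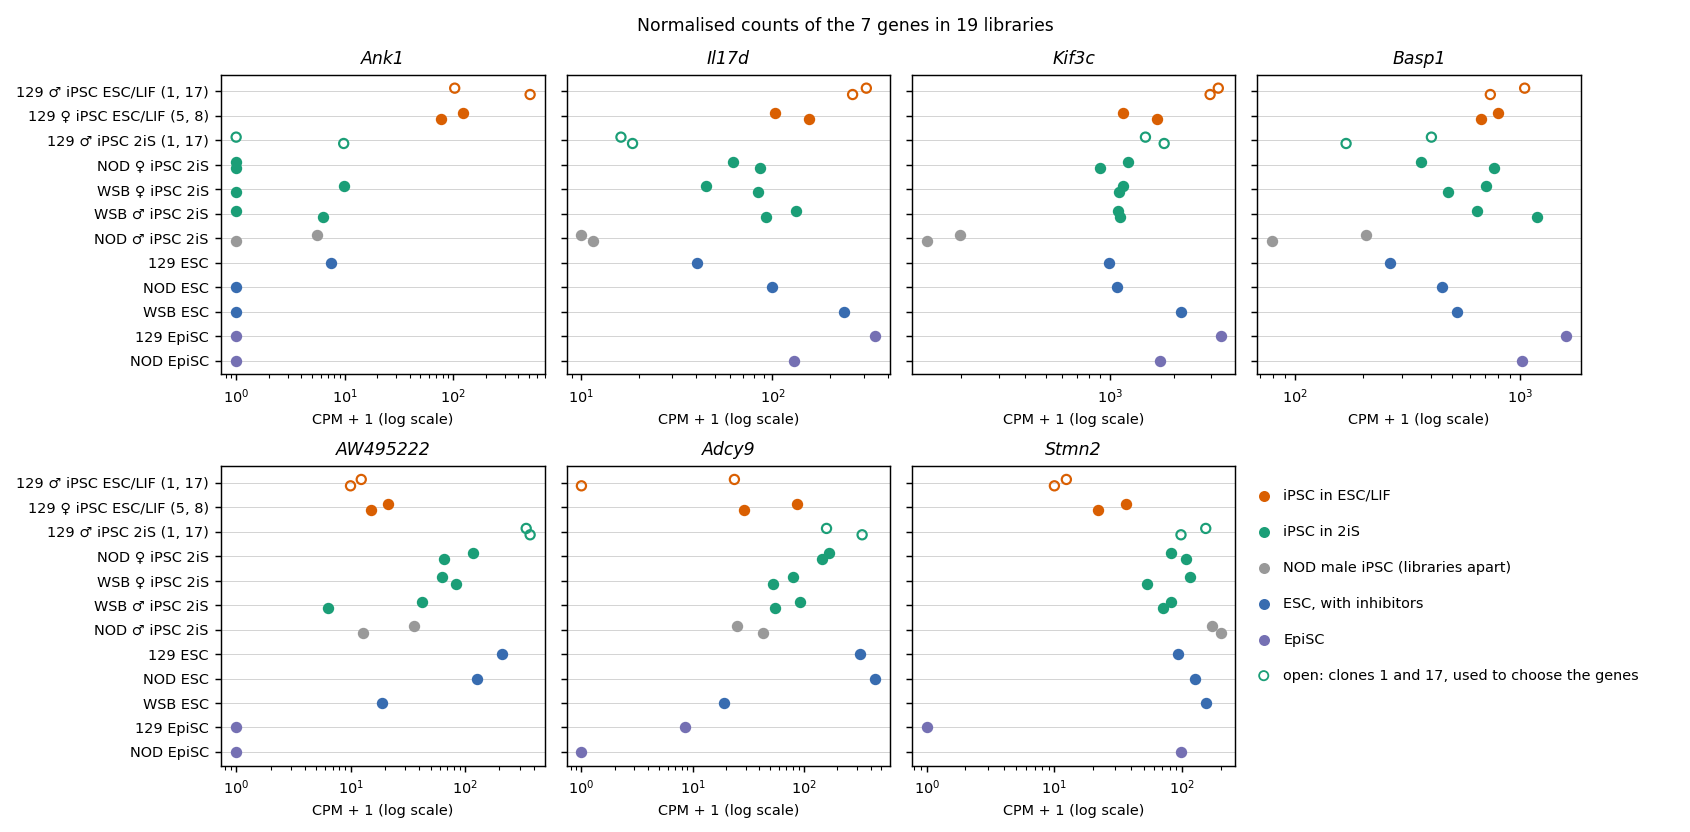
Normalised counts (CPM + 1, log axis) of each gene in the 19 libraries, 1 point a library, with rows for the 12 conditions. Open points are clones 1 and 17, whose libraries chose the genes. Ank1 lies at or under 8.83 CPM outside ESC/LIF. AW495222 is at 0 counts in both EpiSC and, among iPSC in 2iS, lowest in WSB male clone 12 (1 count, 5.38 CPM).

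In clones 1 and 17, 4 of the 7 genes were lower in 2iS (Ank1, Il17d, Kif3c and Basp1) and 3 were higher (AW495222, Adcy9 and Stmn2) in both clones. The differences in log2 CPM (2iS minus ESC/LIF, prior count 2) were -4.82 and -3.54 for Ank1, -3.31 and -3.68 for Il17d, -0.72 and -1.13 for Kif3c and -2.08 and -1.36 for Basp1, for clone 1 and clone 17. They were 4.35 and 4.06 for AW495222, 5.16 and 2.38 for Adcy9 and 2.52 and 2.94 for Stmn2. Of 2160 genes tested in these libraries 192 were called (8.89%, made up of 3.1% higher and 5.79% lower in 2iS), or 102 with the clone as a block, a background from which nothing is read here since the same contrast chose the genes. The 2iS libraries were also 10 passages later, and medium and passage cannot be told apart.

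Ank1 was counted in the 129 libraries in ESC/LIF and hardly anywhere else. Clones 1 and 17 in ESC/LIF had 114 and 9 counts (513 and 103 CPM), and the female clones 5 and 8 had 11 and 24 (77.0 and 122 CPM). No other library had more than 3 counts, and 129 clones 1 and 17 in 2iS had 1 and 0. In the 13 libraries not used to choose the genes, 129 females in ESC/LIF (99.6 ± 31.9 CPM, SD, n = 2) lay above the WSB and NOD females in 2iS (2.21 ± 4.42 CPM, n = 4), with a log2 fold change of 5.52 (SE 1.17, adjusted p = 0.025, edgeR). With 35 against 1 counts the ratio was 57.7 (95% exact interval 9.70 to 2343, counting error only). Ank1 passed the filter on low counts through these 2 libraries alone, and the call was lost when any 1 library was left out (adjusted p = 0.0641 to 0.183; not tested without clone 8). It was higher there than in ESC too, by 4.85 on the log2 scale (SE 1.23, adjusted p = 0.0308; 35 against 1 counts, ratio 38.7, 6.5 to 1571), again a call lost in each fit without 1 library (adjusted p = 0.0511 to 0.151; not tested without clone 8). WSB, NOD, ESC and EpiSC, all at or under 3 counts, give no fold between them. The filter admitted Ank1 through the 129 females alone, which favoured in advance a call for higher levels there. Nothing beyond the counts is therefore read from the calls of Ank1.

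Il17d had 58 and 27 counts in clones 1 and 17 in ESC/LIF (261 and 308 CPM) and 2 and 2 in 2iS (17.6 and 15.2 CPM). In the 129 females in ESC/LIF it stood at 154 and 102 CPM, and in the WSB and NOD females in 2iS at 44.2 to 85.5 CPM. The 129 females did not overlap these females, but the log2 difference of 0.88 (SE 0.55, adjusted p = 0.571) did not pass the test. WSB males, also in 2iS, reached 91.5 and 132 CPM and overlapped the 129 females. ESC ranged with the line, from 39.3 CPM in 129 and 99.0 in NOD to 234 in WSB. EpiSC had 128 (NOD) and 343 CPM (129/Sv). Group means rose from 129 in 2iS, through WSB females, NOD females, WSB males, ESC, 129 females and EpiSC to 129 males in ESC/LIF, and neighbours in that order overlapped except 129 in 2iS and WSB females, and NOD females and WSB males.

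Kif3c levels of the other iPSC overlapped between ESC/LIF and 2iS, though none of these clones was sequenced in both media. It had 2973 and 3249 CPM in clones 1 and 17 in ESC/LIF against 1806 and 1474 in 2iS. The 129 females, grown in ESC/LIF, had 1674 CPM, between the 2iS values of the male clones, and 1151 CPM, below both of them. WSB and NOD iPSC in 2iS stood between 903 and 1220 CPM (1100 ± 107, SD, n = 6), with WSB female clones at 1112 and 1157 and WSB male clones at 1120 and 1090. The log2 difference of the 129 females to WSB and NOD females was 0.35 (SE 0.32, adjusted p = 0.706). ESC had 996 (129), 1080 (NOD) and 2169 CPM (WSB), and EpiSC had 1727 (NOD) and 3333 CPM (129/Sv), which reaches the level of clones 1 and 17 in ESC/LIF. Group means rose from NOD females, WSB males, WSB females, 129 females, ESC, 129 in 2iS and EpiSC to 129 males in ESC/LIF, and each neighbour in that order overlapped the next.

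Basp1 had 738 and 1049 CPM in clones 1 and 17 in ESC/LIF and 167 and 403 in 2iS. The 129 females had 672 and 799 CPM, near the ESC/LIF level. WSB and NOD iPSC in 2iS ran from 363 to 1195 CPM and overlapped both media, NOD females with 764 and 363, WSB females with 478 and 707 and WSB males with 1195 and 642 CPM. The difference of the 129 females to the WSB and NOD females was 0.34 on the log2 scale (SE 0.35, adjusted p = 0.749). ESC were lower at 262 (129), 450 (NOD) and 522 CPM (WSB), all below the 129 females, but the log2 difference of 0.85 (SE 0.37) gave an adjusted p of 0.222, and 37.5% of all genes tested did not overlap. EpiSC stood at 1022 (NOD) and 1602 CPM (129/Sv). From 129 in 2iS, through ESC, NOD females, WSB females, 129 females, 129 males in ESC/LIF and WSB males to EpiSC, each group overlapped the next.

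AW495222 had 2 and 1 counts in clones 1 and 17 in ESC/LIF and 42 and 45 in 2iS (370 and 342 CPM). The 129 females in ESC/LIF had 2 and 4 counts (14 and 20.4 CPM), near the low level of the male clones. NOD females in 2iS had 64.1 and 117 CPM, WSB females 83.2 and 61.8, and WSB males 5.38 and 40.7 CPM. All 6 were below 129 in 2iS. WSB male clone 12, with 1 count, lay below the 129 females in ESC/LIF, an order that rests on few reads. ESC had 210 (129), 126 (NOD) and 18 CPM (WSB, 2 counts), and both EpiSC had 0 counts. Against WSB and NOD females the 129 females were lower without overlap (log2 difference -2.15, SE 0.83, adjusted p = 0.268), a difference that did not pass the test. Group means rose from EpiSC through 129 males and 129 females in ESC/LIF, WSB males, WSB females, NOD females and ESC to 129 in 2iS, and overlap between neighbours was seen for 129 females with WSB males, WSB with NOD females and NOD females with ESC.

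Adcy9 had 0 and 2 counts in clones 1 and 17 in ESC/LIF and 38 and 21 in 2iS (335 and 160 CPM). The 129 females in ESC/LIF had 28.0 and 86.6 CPM, with clone 8 inside the range of WSB clones in 2iS. NOD females in 2iS had 144 and 166 CPM, WSB females 52.0 and 79.5, and WSB males 53.8 and 91.6 CPM. The 4 WSB clones thus lay below both NOD females, but the log2 difference of the females (-1.21, SE 0.83) had an adjusted p of 0.733, and that of all 4 WSB clones to the NOD females (-1.19, SE 0.67) one of 0.589. Of all genes tested 41.7% did not overlap between the females. In ESC the WSB line was low as well, at 18 CPM (2 counts), against 441 CPM in NOD and 321 in 129. EpiSC had 0 (NOD) and 1 counts (129/Sv). From EpiSC through 129 males and 129 females in ESC/LIF, WSB females, WSB males, NOD females and 129 in 2iS to ESC, neighbours overlapped except 129 males with 129 females in ESC/LIF, and WSB males with NOD females.

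Stmn2 had 2 and 1 counts in clones 1 and 17 in ESC/LIF and 11 and 20 in 2iS (96.9 and 152 CPM). The 129 females in ESC/LIF had 3 and 7 counts (21 and 35.6 CPM), below every iPSC library in 2iS. WSB and NOD iPSC in 2iS ran from 52.0 to 115 CPM (84.2 ± 23.3, SD, n = 6), and ESC from 91.7 (129) through 126 (NOD) to 153 CPM (WSB). The difference of the 129 females to the WSB and NOD females was -1.59 on the log2 scale (SE 0.70, adjusted p = 0.338) and to ESC -2.03 (SE 0.71, adjusted p = 0.107). The EpiSC lines parted, with 19 counts (97.1 CPM) in NOD and 0 in 129/Sv. Without the NOD males, group means rose from 129 males and 129 females in ESC/LIF through EpiSC, WSB males, WSB females, NOD females and ESC to 129 in 2iS, and the 129 males and females in ESC/LIF were the only neighbours that did not overlap. NOD male iPSC, whose libraries stand apart, had 199 and 171 CPM.

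**Figure D2:**
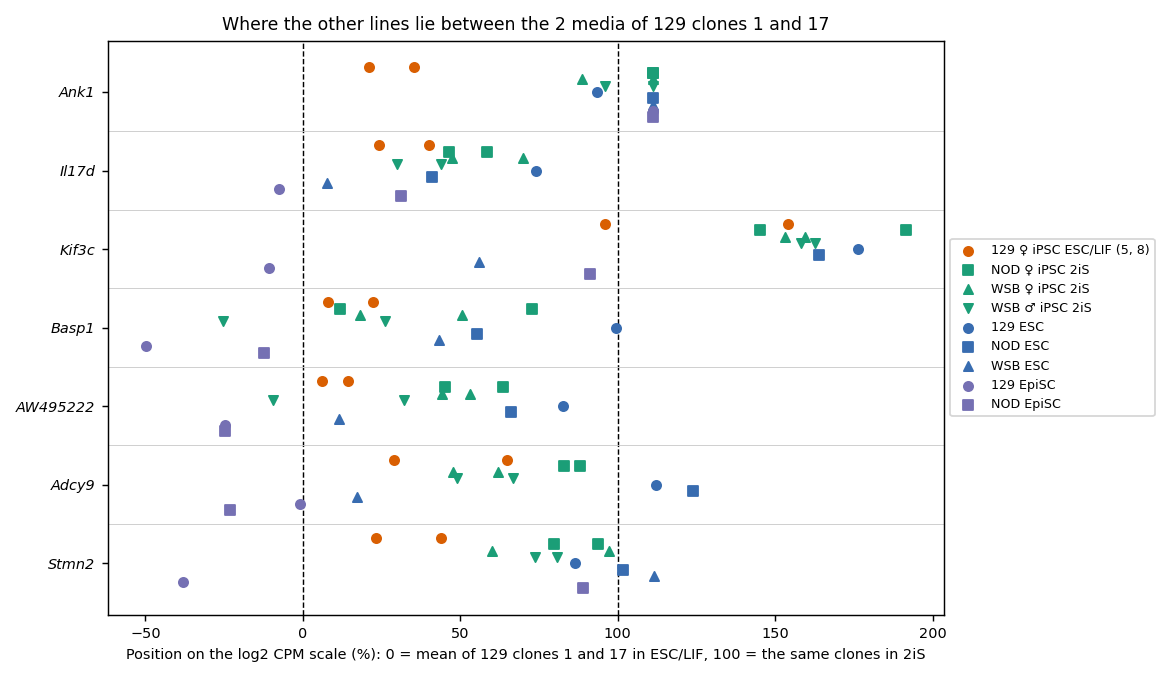
Position of each library of the other lines on the log2 CPM scale of each gene, in percent, where 0 is the mean of 129 clones 1 and 17 in ESC/LIF and 100 their mean in 2iS; 1 point a library, coloured by medium or cell type and shaped by strain or sex, NOD males left out. The 129 females average 10.2% for AW495222 and 15.1% for Basp1 but 125% for Kif3c. The ESC/LIF end for AW495222 rests on 2 and 1 counts.

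Placed between the media of clones 1 and 17, the 129 females in ESC/LIF stood on the ESC/LIF side of the middle for 6 genes on average, at 10.2% (AW495222), 15.1% (Basp1), 28.2% (Ank1), 32.0% (Il17d), 33.4% (Stmn2) and 46.9% (Adcy9), and at 125% for Kif3c. The 6 WSB and NOD iPSC in 2iS stood on average at 105% for Ank1, 80.9% for Stmn2, 66.0% for Adcy9, 49.4% for Il17d, 38.1% for AW495222, 25.6% for Basp1 and 162% for Kif3c. For Ank1 the 2iS end of this scale rests on 1 and 0 counts, so that a library with no counts stands at or past it. The 2iS end for Il17d rests on 2 and 2 counts. The ESC/LIF end rests on 2 and 1 counts for AW495222, 0 and 2 for Adcy9 and 2 and 1 for Stmn2. The positions of these 5 genes therefore depend on the prior count of 2. AW495222 stood at 54.4% in NOD females, 48.5% in WSB females and 11.3% in WSB males. Both ends of the scale are male clones, and their libraries chose the genes. Sex and clone therefore cannot be told apart in the positions of the 129 females. These positions describe the levels and were not tested.

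Across the tests of the 13 other libraries, Ank1 was the only one of the 7 genes called between the 129 females and the WSB and NOD females, where 52 of 3861 genes were called (1.35%). Ank1 passed the filter on low counts only through the 2 libraries where it was high, and 0 of the 7 were called in any fit with 1 library left out. The groups did not overlap in Ank1, Il17d, AW495222 and Stmn2, against 23.2% of all genes tested. Among 2iS lines, WSB and NOD females differed in none of the 7 by edgeR (0.259% of all genes called). Of the 6 that could be compared, 0 had an unadjusted p under 0.05, against 347 of all 3861 genes. DESeq2 called none either. Their log2 differences ran from -1.21 (Adcy9) to 0.10 (Kif3c), with SE from 0.37 to 0.83 and 2 libraries a strain.

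Against ESC, the 6 WSB and NOD iPSC in 2iS had no call among the 7 by edgeR, where 7.2% of all genes were called. ESC, at passage 6, differed from these iPSC in cell source and passage, and partly in strain and sex. These cannot be told apart. Ank1, with 2 against 1 counts, could not be compared. Of the 7, 3 had an unadjusted p under 0.05 by edgeR, against 835 of all 3861 genes, and DESeq2 called none. The nearest to the threshold were Adcy9 (-1.55 on the log2 scale, SE 0.52, adjusted p = 0.08), AW495222 (-1.30, SE 0.54, adjusted p = 0.166) and Basp1 (0.73, SE 0.31, adjusted p = 0.163). Without WSB ESC, Adcy9 (-2.07, adjusted p = 0.0011) and AW495222 (-1.77, adjusted p = 0.0235) passed. Between the 129 females and ESC Ank1 was the only one called (5.23% of all genes called), a call lost in each fit without 1 library. Here too Ank1 had passed the filter on low counts only through the 129 females, so nothing is read from the call. The 129 females differed from ESC in medium, cell source, sex and passage, and partly in strain, which cannot be told apart. Without WSB ESC AW495222 (-3.24, adjusted p = 0.00903) and Adcy9 (-2.67, adjusted p = 0.0047) passed and Ank1 did not (adjusted p = 0.0733). Summed fibroblast markers were 657 to 1206 CPM in ESC, with 1 of 12 genes at 0, against 26.7 to 135 in the 6 iPSC, with 4 of 12 at 0, and their part in these differences was not tested.

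Against EpiSC, 5 of the 7 genes were called, each in the direction seen from ESC/LIF to 2iS. Of all genes 31.5% were called (12.0% higher and 19.6% lower in iPSC). Ank1, with 2 against 0 counts, could not be compared. EpiSC differed from these iPSC in medium and cell state, and partly in strain and sex, which cannot be told apart. AW495222 was at least 6.59-fold higher in the 6 WSB and NOD iPSC in 2iS, with 51 against 0 counts (adjusted p = 0.0116; bound from 3 counts over the group). Adcy9 had 87 against 1 counts, a ratio of 33.7 (exact interval 5.90 to 1348, adjusted p = 0.0113). The filter on low counts admitted AW495222 and Adcy9 through libraries other than EpiSC, which favoured in advance a call for lower levels in EpiSC. Nothing beyond the counts is therefore read from the calls of AW495222 and Adcy9. Kif3c (-1.19, SE 0.28, adjusted p = 0.0039), Il17d (-1.51, SE 0.46, adjusted p = 0.0192) and Basp1 (-0.94, SE 0.31, adjusted p = 0.0285) were lower in log2 fold change, and Stmn2 (0.61, SE 0.59, adjusted p = 0.466) was not called. With library sizes set to uniquely aligned pairs, which raised the median log2 fold change of all genes by 0.57 and the share of calls higher in iPSC from 38% to 73.2%, AW495222 and Adcy9 kept their calls and Kif3c (-0.56, adjusted p = 0.094), Il17d (-0.87) and Basp1 (-0.31) lost theirs. Without the 129/Sv EpiSC Kif3c, Il17d and Basp1 also lost theirs, and without the NOD EpiSC AW495222 and Adcy9 did. Each of these fits has 1 EpiSC library, so no p is given. Without the NOD EpiSC the log2 difference of Stmn2 was 6.58, from 72 counts in the 6 iPSC against 0 in the 129/Sv EpiSC. Its size depends on how 0 counts are handled, since 3 counts in that library equal 22.9 CPM, against a mean of 84.2 CPM in the iPSC. Without WSB male clone 25, Basp1 (0.0788) and AW495222 (0.0502) also missed the threshold, as did Basp1 without NOD clone 52 (0.0757) or WSB clone 23 (0.0657) and Il17d without WSB clone 28 (0.0536). Summed neural markers were 656 to 761 CPM in EpiSC, with all 12 above 0 counts, and 67.8 to 155 CPM in the 6 iPSC, with 1 of 12 at 0, and their part was not tested.

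**Figure D3:**
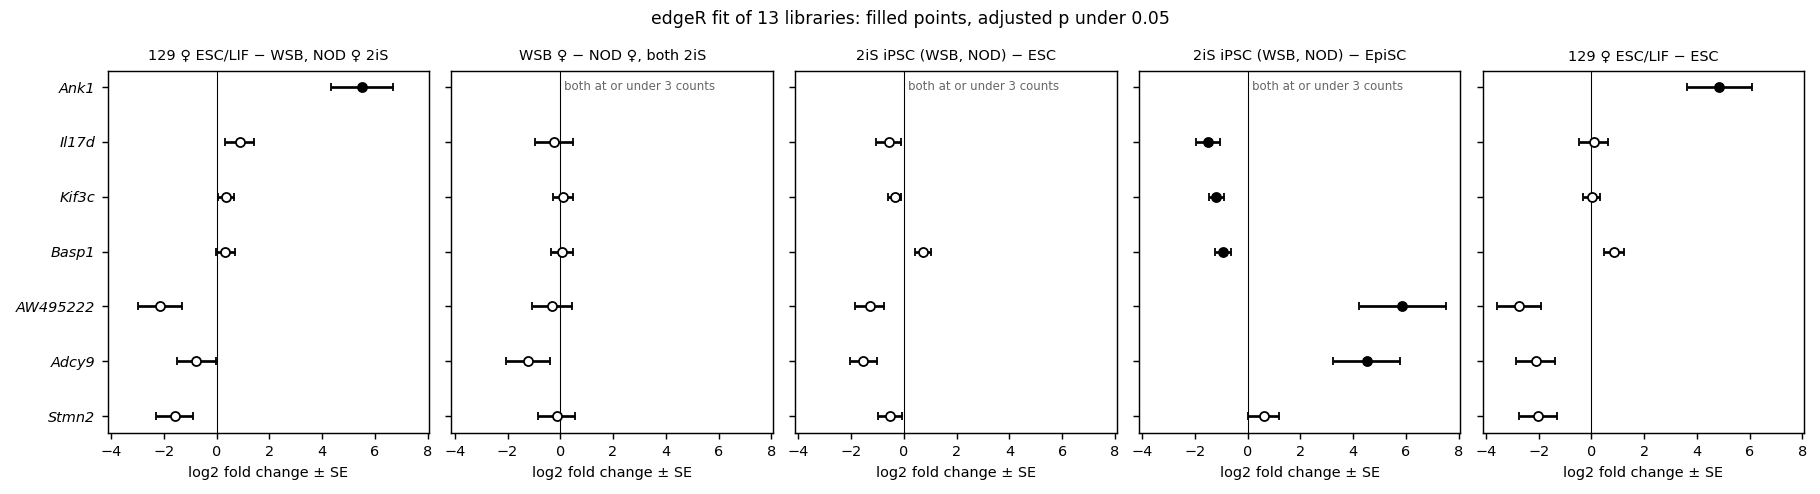
Log2 fold change ± SE of each gene in the 5 comparisons, each first group minus second, from the edgeR fit of 13 libraries. Filled points have an adjusted p under 0.05. Ank1 is filled in both comparisons of the 129 females, and 5 genes are filled against EpiSC. Ank1 passed the filter on low counts only through the 129 females, where it was high. AW495222 and Adcy9 passed it through libraries other than EpiSC, where they had 0 or 1 counts.

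The genes on the opposite strands also varied. Dmgdh had 0 to 7 counts per library, with 7 in 129 ESC (45.9 CPM), 4 in NOD ESC and 5 and 2 in 129 clones 17 and 1 in 2iS, the 4 libraries with the most AW495222 in CPM. NOD male iPSC clone 35 also had 7 Dmgdh counts, at 34.8 CPM of AW495222, and with so few counts no order is read from these levels. 1110002L01Rik was highest in EpiSC (235 and 328 CPM), where Kif3c was high as well, but stood at 76.4 and 79.8 CPM in clones 1 and 17 in ESC/LIF against 44.1 and 68.4 in 2iS. Mir3107, within Ank1, had 0 counts in every library.

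**Figure D4:**
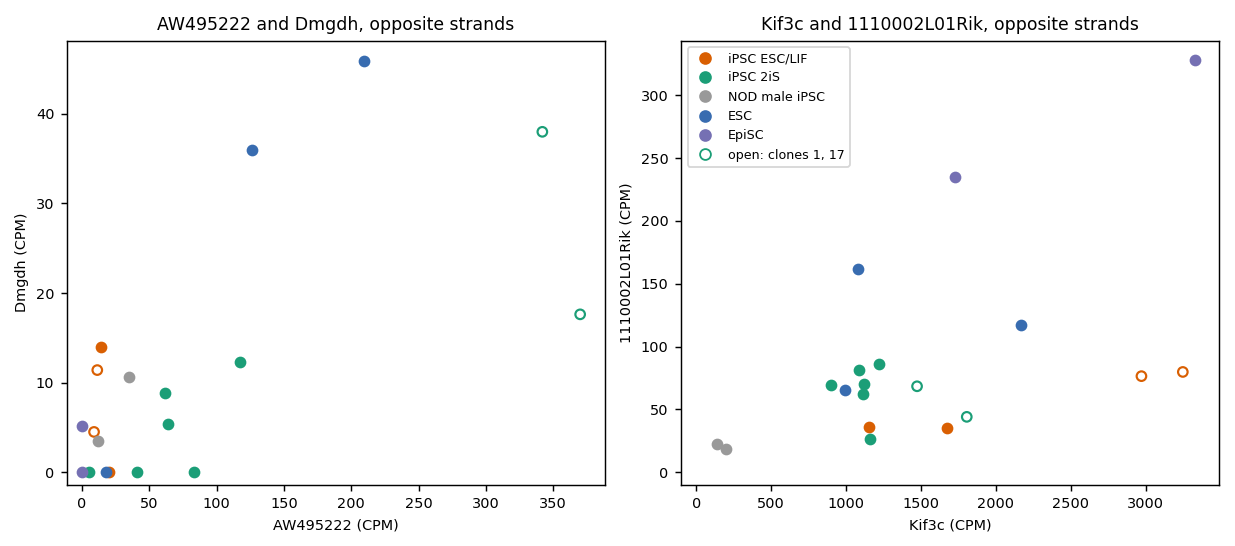
Levels (CPM) of AW495222 against Dmgdh and of Kif3c against 1110002L01Rik, which lie on opposite strands with overlapping exons, 1 point a library. The highest Dmgdh levels belong to 129 ESC, 129 clone 17 in 2iS and NOD ESC (45.9, 38 and 36 CPM), and the highest of 1110002L01Rik to both EpiSC.

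Adcy9 and AW495222 had the closest pattern of any pair of the 7 over the 13 libraries (Pearson r = 0.88 of log2 CPM), and AW495222 was the tested gene most like Adcy9 of all, followed by Sun1 (0.87). Il17d was most like Crybg3 (0.97) and Asic1 (0.87), Kif3c like AU040320 (0.89) and Acat3 (0.88), Basp1 like Serhl (0.85) and Arhgef40 (0.84), and Stmn2 like Zfp292 (0.90) and Trpm3 (0.85). Among the 7, Il17d and Kif3c also rose and fell together (0.83), and Basp1 ran against AW495222 (-0.88). The points share sequencing depth and 2 EpiSC that lie at the ends of many of these scales, so the values are descriptions. Ank1 and AW495222 had under 10 counts a library on average and no list of their own was drawn.

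Among 22 adenylyl cyclase and cAMP genes, 6 were tested. Against EpiSC only Adcy9 was higher in the iPSC in 2iS, and 3 were lower, namely Gnas, which codes for the stimulating G protein of these enzymes (-2.28), Adcy3 (-2.10) and Adcy7 (-2.02), with a median of -0.92 for the 6 against 0.05 for all genes. All 3 kept direction and call with uniquely aligned pairs as library size. No gene of the list was called between the 129 females and the WSB and NOD females. Of 13 IL-17 family genes 2 were tested, and beside Il17d Traf3ip2, an adaptor of IL-17 receptors, was lower than in EpiSC (-2.65, adjusted p = 0.000527). In the family of Basp1, 3 of 4 were tested, and Marcks was lower than in EpiSC (-2.80). Of 15 ankyrin, spectrin and partner genes in the files 7 were tested and Ank1 alone was called in the 129 females; against EpiSC 1 was higher, Sptbn1 (1.27), and 2 were lower, among them Tmod1 (-0.63), which lost its call with uniquely aligned pairs. Kif3c was the only one of 5 kinesin-2 genes tested, and of 4 stathmins 2 were tested, with none called in these 5 comparisons.

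As checks on the inhibitors, 18 genes of ERK output and 15 of Wnt output were listed, of which 5 and none passed the filter in the 13 libraries. None of the 5 was called between the 129 females and the WSB and NOD females (median 0.43 against 0.01 for all genes). In clones 1 and 17, 4 of the ERK genes passed the filter and 1 was called, the negative regulator Spry4, at 90.6 CPM in ESC/LIF and 19.6 in 2iS. The summed level of the ERK list, which includes Myc, ran from 728 to 844 CPM in the 129 iPSC in ESC/LIF and from 486 to 537 in the 129 clones in 2iS. Among the other iPSC in 2iS it ran from 394 to 566 CPM in NOD females, from 557 to 717 in WSB females and from 743 to 991 in WSB males. In ESC it ran from 351 to 393 CPM. Myc, also a gene of the lentiviral mix, had 154 counts in the 6 iPSC and 3 in ESC (adjusted p = 0.000212) and was higher than in EpiSC by 2.92 on the log2 scale (adjusted p = 0.000913), and lentiviral and endogenous reads cannot be told apart. Against EpiSC the direction was mixed, with Etv5 higher (1.29) and Fosl1 (-1.73) and Ccnd1 (-1.05) lower in the iPSC, of which Fosl1 and Ccnd1 lost their calls with uniquely aligned pairs.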

How the data were processed

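RNA of 19 libraries was sequenced after a stranded mRNA preparation. The authors trimmed the reads, aligned them to GRCm38 with TopHat2 2.1.1 and counted pairs per gene with HTSeq (intersection-nonempty). The raw counts the authors deposited for 23420 genes were used as they stand. Lines for pairs on no gene or on several genes stayed out of library sizes and tests; pairs on genes made up 1.15% to 5.62% of those aligned uniquely. Group, clone and passage came from sample titles.

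The 7 genes, the lists and the promoter motifs were chosen with earlier results of these data known. Differential expression was tested in 13 libraries (all but the 4 that chose the genes and both NOD male iPSC) with edgeR 4.0.16 in R 4.3.3 (TMM, filterByExpr, quasi-likelihood F test, 2-sided, Benjamini-Hochberg adjusted p under 0.05 over 3861 genes), and a group of lines enters as the mean of its conditions. SE was taken from the fold change and its F value. Levels are CPM with TMM over all 19 libraries, and log2 CPM uses a prior count of 2. Where a group had 0 counts, a fold is bounded by 3 counts over the group, and with 1 to 3 counts a ratio has an exact interval from scipy 1.17.1. The alternatives were DESeq2 1.42.0, its size factors, no filter, uniquely aligned pairs as library size, all 19 libraries, other sets of lines and each library left out. WSB or NOD females alone were added after the values were seen. Clones 1 and 17 were each sequenced in both media, which pairs them; the clone difference correlated by 0.067 between media over 2160 genes. The procedure was tested on simulated data.

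Named beside the 7 genes are those on the opposite strand, up to 3 called genes a list by size of change (1 such gene is not reported here), and for each of the 7 with a mean of 10 or more counts the 2 genes closest in log2 CPM. Of the gene names 98.4% matched the GENCODE annotation. Intervals and bounds cover counting error only.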

Additional observations from a re-analysis of the deposited data

Results flagged for a closer look

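In Adcy9 the difference between iPSC in 2iS and the ESC line of the same strain had opposite signs in the strains. It averaged 1.48 on the log2 CPM scale over the 4 WSB clones and -1.45 over the 2 NOD female clones, and every clone of a strain had the sign of its mean. WSB ESC had 2 Adcy9 counts, under the floor of 3, so that the WSB value depends on the prior count of 2. With 1 ESC line a strain the difference was not tested.

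Stmn2 was counted in both NOD male iPSC, which entered no comparison, at 199 CPM in clone 3 and 171 CPM in clone 35, above the NOD female clones (107 and 80.1 CPM). In these libraries a larger share of pairs fell on genes, and its part was not tested. Ank1 left out, 24 checks of the lowest and highest library of the other 6 genes, in the 4 WSB iPSC and in the 6 WSB and NOD iPSC without NOD males, found none that stood apart by Dixon's criterion.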

How the results depend on the processing

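Of 383 values of single genes under an alternative, 323 held direction and side of the threshold, 25 fell below it, 11 passed it and 24 changed sign, each without a call. For the 129 females against WSB and NOD females, 27 genes were called by DESeq2, 161 without a filter, 81 with all 19 libraries, 85 with WSB males added, 32 against WSB females alone and 9 to 35 with 1 library left out. Of the 7 genes 0 were called by DESeq2 (which gave Ank1 no adjusted p), with any 1 library left out or against either strain alone (Ank1, adjusted p = 0.194 for WSB and 0.0592 for NOD). Between WSB and NOD females 76 genes were called without a filter, 20 with uniquely aligned pairs, 22 with all libraries, 30 with WSB males and 3 to 6 with 1 library left out. Sign changes there were Kif3c -0.024 and Basp1 -0.039 without a filter, Stmn2 0.075 with uniquely aligned pairs and Il17d 0.15 with WSB males. With 1 library left out the ranges were Kif3c -0.12 to 0.30, Basp1 -0.39 to 0.69, Stmn2 -0.87 to 0.29, Il17d -0.73 to 0.14 and AW495222 -0.71 to 0.14.

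Against ESC, 534 genes were called in 2iS without a filter and 153 to 272 with 1 library left out, the lowest without NOD ESC; of the 7 genes 1 was called without a filter (Adcy9), 1 with uniquely aligned pairs (Basp1) and 0 to 2 with 1 left out, where Il17d ran from -1.07 to 0.26 and Kif3c from -0.57 to 0.082. Against EpiSC, 2 of the 7 were called with uniquely aligned pairs and 2 to 5 with 1 left out, where Stmn2 ran from -0.23 to 6.58. For the 129 females against ESC, 116 genes were called by DESeq2, 360 without a filter and 20 to 188 with 1 library left out; of the 7, 0 by DESeq2, 4 without a filter, 2 with all libraries and 0 to 2 with 1 left out. Kif3c there changed sign by DESeq2 (-0.045), with its size factors (-0.045) and with all libraries (-0.026), and with 1 left out ran from -0.29 to 0.42, and Il17d from -0.41 to 0.90. The cause was not tested.

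In clones 1 and 17, 47 genes were called by DESeq2 and 102 with the clone as a replicate block. No library of these clones was left out, since the genes were chosen there.

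The spread between the highest and lowest condition (log2) came to 4.17 for Ank1, 3.28 for Il17d, 1.93 for Kif3c, 1.88 for Basp1, 4.64 for Adcy9 and 3.42 for Stmn2 per uniquely aligned pairs, and with a prior count of 0.5 to 6.59 for Ank1, 7.22 for AW495222, 7.53 for Adcy9 and 6.01 for Stmn2. With 3 counts worth 3.54 to 34.2 CPM, depending on the library, low levels of Ank1, AW495222, Adcy9 and Stmn2 rest on few reads.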
